A study of Mus musculus with 6 samples.

Results

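Transcript signals of 10 regulators of fat cell formation were described in stromal cells of mouse fat: Pparg, the C/EBP genes Cebpa, Cebpb and Cebpd, the early B-cell factor genes Ebf1, Ebf2 and Ebf3, and the zinc-finger genes Zfp423, Zfp521 and Zfp467. All probes whose platform annotation gives 1 of these symbols were taken, 19 of the 45281 probes on the array. Male Zfp423-GFP reporter mice, 5 weeks old, supplied the epididymal fat, whose stromal vascular fraction (all cells but the fat cells) was used. Every sample, GFP-negative ones included, came from mice with this reporter. Cells that stained for PDGFRβ and for neither CD31 (an endothelial protein) nor CD45 (a leukocyte protein) were sorted into a GFP-positive and a GFP-negative fraction. Each fraction was measured in 3 samples on 1-colour Illumina bead arrays, after 2 rounds of RNA amplification. How GFP was placed at or near Zfp423, whether animals were pooled, and how closely GFP follows the transcript are not stated in the labels. They call the samples biological triplicates; p-values measure the spread between these samples.

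Fat cell formation runs through a cascade of transcription factors. C/EBPβ and C/EBPδ are induced early and switch on Pparg and Cebpa, whose products then activate each other and the genes of the mature fat cell. EBF proteins also feed into Pparg and Cebpa. Zfp423 marks cells committed to the fat lineage and raises their response to BMP signals, Zfp521 opposes Zfp423 and EBF1, and Zfp467 favours fat over bone formation.

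A probe was called detected on an array where its detection p, which sets it against the negative control beads of that array, was under 0.01. The lowest detected signals lay between 188.3 and 221.9 intensity units over the 6 arrays, and 13068 to 14026 probes were detected per array. Log2 values are background-corrected and quantile-normalized signals, and differences are GFP-positive minus GFP-negative in limma's moderated linear model with Benjamini-Hochberg adjustment over 13727 tested probes. Those probes were detected on at least 3 of the 6 arrays. Arrays whose titles begin with RG (GFP-positive 1 and 2, GFP-negative 1) and with KM (GFP-positive 3, GFP-negative 2 and 3) were also compared among themselves; the labels do not say what these letters mark. In bulk RNA, fewer cells with a transcript and less of it per cell cannot be told apart.

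Of the 19 probes, 12 were detected on all 6 arrays, 6 on none, and 1 on 5. The 13 probes that were tested cover 9 of the 10 genes and were detected in both groups, so none was measured in 1 group alone. At an adjusted p under 0.05, 5 of them were lower and 1 was higher in GFP-positive cells, which is 46.2% of the tested member probes. Of all tested probes 15.6% were called, 7.77% lower and 7.85% higher. The lower probes belong to Cebpb, Ebf1, Ebf2 (both of its probes) and Zfp521, and the higher probe to Zfp467. Zfp423, Pparg, Ebf3 and Cebpd did not pass, and Cebpa was not detected. The groups did not overlap at 7 of the 13 probes, 6 lower and 1 higher, beside 36.3% of all tested probes (20.5% lower, 15.8% higher). A called member had an exact 2-sided permutation p of 0.1, the smallest that 3 against 3 arrays can give. The median difference was -0.34 over the 13 probes and -0.05 over all tested probes (log2). Several of the probes are of 1 gene, so these counts are not counts of independent genes.

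**Figure D1:**
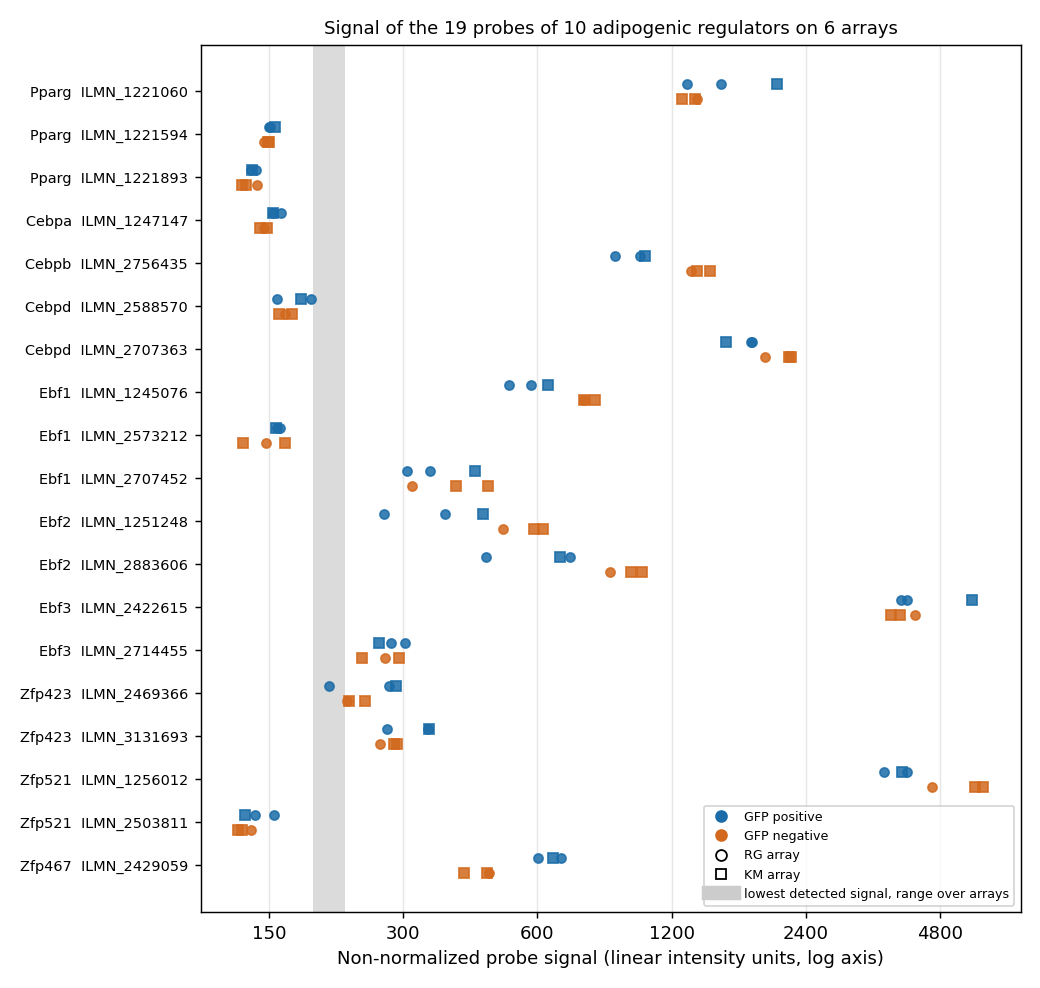
Non-normalized signal (linear intensity units, log axis) of each of the 19 probes on each array, GFP-positive in blue and GFP-negative in orange, circles for RG and squares for KM arrays; the grey band spans the lowest detected signal of the 6 arrays (188.3 to 221.9). The only Cebpa probe and 5 others lie left of the band on every array. Of the 13 tested probes, 7 show groups that do not overlap, beside 36.3% of all tested probes after normalization. These 7 are the Cebpb, Ebf2 and Zfp467 probes, Cebpd ILMN_2707363, Ebf1 ILMN_1245076 and Zfp521 ILMN_1256012.

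The stretches directly before the annotated starts of 4 of the genes are shown, because they are where the cascade's own factors could act: Cebpb, which was lower; Zfp467, which was higher; Zfp423, whose reporter defined the sort; and the start of the fat-cell form of Pparg, a known target of C/EBP proteins. Each is 250 bases long and ends at the base before the start, 5′ to 3′ on the gene's strand, from RefSeq on build GRCm38.p6. Windows before 11 starts of 7 of the 10 genes were searched. Ebf2, Cebpd and Zfp521 were not part of this search, so nothing is said of the stretches before their starts. Capitals mark matches, on either strand, to the CRE core TGACG bound by CREB, the EBF core CCCNNGGG, the C/EBP core TTGCNNAA, the TATA box TATAAA and the nuclear receptor element AGGTCA.
Cebpb (chr2:167688665-167688914, plus strand): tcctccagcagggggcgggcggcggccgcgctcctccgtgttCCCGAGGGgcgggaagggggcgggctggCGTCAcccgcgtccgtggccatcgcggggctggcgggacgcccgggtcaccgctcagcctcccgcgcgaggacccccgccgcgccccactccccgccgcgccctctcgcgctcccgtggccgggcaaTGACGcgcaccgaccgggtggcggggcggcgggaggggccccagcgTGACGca
Zfp467 (chr6:48445091-48445340, minus strand): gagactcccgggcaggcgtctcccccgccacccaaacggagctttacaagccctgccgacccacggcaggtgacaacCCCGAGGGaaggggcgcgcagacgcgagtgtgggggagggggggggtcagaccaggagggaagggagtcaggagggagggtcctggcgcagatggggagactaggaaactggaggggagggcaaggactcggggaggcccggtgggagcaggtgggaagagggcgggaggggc
Zfp423 (chr8:87959596-87959845, minus strand): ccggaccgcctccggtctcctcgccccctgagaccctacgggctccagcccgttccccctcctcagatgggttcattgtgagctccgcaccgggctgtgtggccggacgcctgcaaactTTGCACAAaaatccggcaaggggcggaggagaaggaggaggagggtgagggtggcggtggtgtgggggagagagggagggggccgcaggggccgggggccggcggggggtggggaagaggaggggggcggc
Pparg (chr6:115421816-115422065, plus strand): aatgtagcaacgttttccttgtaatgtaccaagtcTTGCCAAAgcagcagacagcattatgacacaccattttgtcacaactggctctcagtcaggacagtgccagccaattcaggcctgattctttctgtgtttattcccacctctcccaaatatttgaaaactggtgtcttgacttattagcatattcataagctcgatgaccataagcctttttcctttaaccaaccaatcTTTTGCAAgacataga
In the Cebpb stretch the CRE core occurs 3 times, beginning 180, 53 and 7 bases before the start, and 17.8% of all 32851 promoter windows of this length hold it at least once. Cebpb and Zfp467 each hold 1 EBF core with the same letters, CCCGAGGG, at 208 and 173 bases before their starts, and 11.8% of all windows hold an EBF core. The Cebpb and Zfp467 windows are 81.6% and 70.4% G or C, and the shares over all windows were not matched for base content. The C/EBP core occurs once before the first of 2 annotated Zfp423 starts, the one printed, at 131 bases, and at 215 and 16 bases before the Pparg start, against 9.56% of all windows. The window before the second Zfp423 start holds no C/EBP core, and has 1 EBF core at 28 bases and 1 nuclear receptor element at 34. The window before Ebf3, a gene without a detectable difference, holds 2 CRE cores, at 140 and 44 bases, and 1 EBF core at 21. Before Pparg starts 1 and 2, not printed, a nuclear receptor element lies at 28 and at 9 bases. A TATA box lies at 29 bases before Pparg start 2 and at 30 before the Cebpa start. Nuclear receptor elements occur in 14.0% and TATA boxes in 12.4% of all windows. None of the 5 motifs was found in the windows before the 2 annotated Ebf1 starts. No capitals in the 4 printed stretches overlap between motifs.

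Zfp423 transcript signal did not differ detectably between the fractions that were sorted on its reporter. Probe ILMN_3131693 read 276.2, 342.0 and 343.2 intensity units in GFP-positive cells (arrays 1 to 3) and 265.7, 290.4 and 286.7 in GFP-negative cells. The groups overlap, since the lowest GFP-positive array lies below 2 of the GFP-negative arrays. The difference was 0.12 ± 0.17 (log2, SE; limma adjusted p = 0.694), and its 95% interval allows anything from a fold of 0.817 to one of 1.44. Probe ILMN_2469366 was near the detection limit. Its signals were 204.2, 279.0 and 289.6 in GFP-positive cells, with a detection p of 0.01389 on the first of these arrays, and 224.6, 246.8 and 227.4 in GFP-negative cells. Its difference was -0.02 ± 0.28 (limma adjusted p = 0.979) and changed to 0.31 without GFP-positive array 1, the array on which it was not detected. Where on the transcript the probes bind was not checked, so these probes neither test nor replace the labels of the sort.

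Zfp521, which encodes a relative of Zfp423 that restrains adipogenesis, was lower in GFP-positive cells. Probe ILMN_1256012 read 4043.4, 3592.8 and 3934.4 in GFP-positive cells (arrays 1 to 3) and 4592.0, 5994.0 and 5749.7 in GFP-negative cells. Every GFP-negative array lies above every GFP-positive array, with GFP-negative array 1, the only RG array of that group, closest to the GFP-positive values. The signal was 1.47-fold lower (log2 -0.55 ± 0.14 SE; limma adjusted p = 0.0408), by -0.32 among RG arrays and -0.67 among KM arrays. The direction was the same under all 18 other settings, and the call held under 9 of them. It ended with the title letters as a block (-0.50, adjusted p = 0.0762) and without any 1 of the arrays (adjusted p = 0.063 to 0.138) other than GFP-negative array 1 (-0.67, adjusted p = 0.0263). Its other probe, ILMN_2503811, was not detected on any array, with signals of 128.0 to 154.4.

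Zfp467, a zinc-finger gene whose product promotes adipogenesis, was the member that rose. Its single probe, ILMN_2429059, read 603.0, 679.1 and 651.7 in the GFP-positive samples, against 467.5, 411.5 and 462.7 in the GFP-negative ones. The groups are well apart, and the arrays within a group differ little. The rise was 1.46-fold (log2 0.54 ± 0.11 SE; limma adjusted p = 0.0191), 0.52 among RG arrays and 0.54 among KM arrays. The call ended without GFP-positive array 2 (0.50, adjusted p = 0.0577) and without GFP-negative array 2 (0.48, adjusted p = 0.0789), and the rise was 0.41 without background correction, still past the threshold.

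Cebpb, which encodes the early activator C/EBPβ, was lower in GFP-positive cells. Its only probe, ILMN_2756435, read 895.7, 1016.8 and 1043.2 in GFP-positive cells (arrays 1 to 3) and 1323.2, 1461.6 and 1365.4 in GFP-negative cells. The highest GFP-positive array lies well below the lowest GFP-negative array. The fall was 1.57-fold (95% interval 1.30 to 1.88; log2 -0.65 ± 0.11 SE; limma adjusted p = 0.0105), -0.58 among RG arrays and -0.63 among KM arrays. Cebpb stayed past the threshold under all 18 other settings, between -0.70 and -0.57 with adjusted p from 0.00348 to 0.0488. The stretch before its start is the one with 3 CRE cores above.

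Cebpd, the partner of Cebpb in the early step, lay in the same direction without passing. Probe ILMN_2707363 read 1816.9, 1809.7 and 1584.6 in the GFP-positive samples, against 1946.0, 2217.3 and 2200.6 in the GFP-negative ones. These groups also do not overlap, but the gap between GFP-positive array 1 and GFP-negative array 1 is narrow. The difference was -0.40 ± 0.13 (log2, SE; limma adjusted p = 0.0782), -0.17 among RG arrays and -0.64 among KM arrays. It passed under 3 of 18 settings: without background correction, with the authors' normalized values (adjusted p = 0.0426 for each) and with an intensity trend and robust prior (adjusted p = 0.0402). The other probe, ILMN_2588570, was not detected on any array (156.3 to 186.1). Cebpb and Cebpd are also known to respond to stress, so the immediate early and stress genes are given beside them. Of 12 such genes tested, Junb fell 1.61-fold (limma adjusted p = 0.0149) and none rose, beside 15.6% called of all tested probes. An unadjusted p under 0.05 was seen for 5 of the 12, of which 2 were higher and 3 lower. The heat shock genes Hspa1a and Hspa1b differed by 0.91 (adjusted p = 0.0579, groups not overlapping) and 1.37 (adjusted p = 0.0998), and Atf3 by -0.48 (adjusted p = 0.053, groups not overlapping), on the log2 scale. The summed background-corrected signal of the 12, which weights the brightest probes, was 148477 to 158343 in GFP-positive and 156356 to 160507 in GFP-negative cells, and these ranges overlap. The part of these genes in the Cebpb difference was not tested.

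Ebf2, known for marking precursors of brown and beige fat cells, had the largest fitted falls of the 13 tested member probes, and its probes moved alike. Probe ILMN_2883606 read 710.4, 460.5 and 673.3 in GFP-positive cells (arrays 1 to 3) and 874.2, 970.7 and 1031.7 in GFP-negative cells. Probe ILMN_1251248, assigned to the same transcript, read 372.0, 272.1 and 453.3 against 503.0, 617.9 and 591.2. With each probe the groups do not overlap and GFP-positive array 2 is the lowest of the 6. The falls were 1.92-fold (log2 -0.94 ± 0.24 SE; limma adjusted p = 0.0403) and 2.20-fold (log2 -1.13 ± 0.30; adjusted p = 0.0466). Within the RG and KM arrays they were -0.84 and -0.87 for the first and -1.11 and -0.77 for the second probe. With the title letters as a block they were -0.85 (limma adjusted p = 0.0808) and -0.94 (adjusted p = 0.0608), both no longer called. Without GFP-positive array 2 they were -0.67 (adjusted p = 0.0412) and -0.80 (adjusted p = 0.0501). The falls were smaller without background correction, at -0.77 (limma adjusted p = 0.0144) and -0.78 (adjusted p = 0.0161). The calls are close to the threshold: they held under 10 of 18 and 6 of 17 other settings, and both ended without GFP-negative array 1 (adjusted p = 0.0624 and 0.0634), 2 (0.128 and 0.1496) or 3 (0.124 and 0.131). The call of the first also ended without GFP-positive array 3 (adjusted p = 0.066), and that of the second without GFP-positive array 1 (adjusted p = 0.0833).

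Ebf1, a promoter of adipogenesis, gave different answers with different probes. Probe ILMN_1245076, annotated to a cDNA clone, read 517.1, 582.1 and 634.3 in the GFP-positive samples, against 762.7, 763.9 and 806.9 in the GFP-negative ones. The groups do not overlap, and the fall was 1.60-fold (log2 -0.68 ± 0.12 SE; limma adjusted p = 0.0107), -0.68 among RG arrays and -0.56 among KM arrays. This probe stayed past the threshold under all 18 other settings (-0.75 to -0.54). Probe ILMN_2707452, annotated to the RefSeq transcript, read 344.6, 305.7 and 434.5 against 313.7, 393.3 and 465.9. Here the groups overlap. The difference was -0.34 ± 0.29 (limma adjusted p = 0.466), or -0.13 without GFP-negative array 3 and -0.61 without GFP-negative array 1, and its 95% interval, from -1.02 to 0.34, includes the fall of the other probe. A further probe, ILMN_2573212, was not detected on any array (131.2 to 163.0). Which Ebf1 transcripts each probe reports on was not checked.

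Ebf3, another member of the family, showed no detectable difference. Probe ILMN_2422615 read 4040.3, 3913.5 and 5655.9 in GFP-positive cells (arrays 1 to 3) and 4215.0, 3892.7 and 3715.2 in GFP-negative cells. GFP-positive array 3 stands above the other 5, which lie close together. The difference was 0.13 ± 0.16 (log2, SE; limma adjusted p = 0.644), -0.14 among RG arrays and 0.51 among KM arrays, and it turned to -0.04 without GFP-positive array 3. Probe ILMN_2714455 read 264.8 to 302.4 on the GFP-positive and 242.8 to 293.4 on the GFP-negative arrays, a difference of -0.08 ± 0.18 (adjusted p = 0.792). It was 0.04 without GFP-positive array 3 and 0.06 without GFP-negative array 2.

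Pparg, whose product directs fat cell differentiation, was detected on all 6 arrays by 1 of its 3 probes. That probe, ILMN_1221060, read 1301.0, 1544.8 and 2067.3 in the GFP-positive samples, against 1367.8, 1352.8 and 1265.2 in the GFP-negative ones. The GFP-negative arrays lie close together, while the GFP-positive arrays spread from within their range to well above it. GFP-positive array 3, also the highest at Ebf3 probe ILMN_2422615 but not at the other Ebf3 probe, is the highest. The difference was 0.22 ± 0.17 (log2, SE; limma adjusted p = 0.443; 95% interval -0.19 to 0.63), 0.02 among RG arrays and 0.59 among KM arrays, and 0.04 without GFP-positive array 3. Probes ILMN_1221594 (146.1 to 155.0) and ILMN_1221893 (130.9 to 140.8) were not detected on any array. Which of these probes covers the fat-cell form, whose upstream stretch is printed above, was not checked.

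Cebpa, which encodes the late factor C/EBPα that works with PPARγ, was not detected on any array. Its only probe, ILMN_1247147, read 153.1, 160.0 and 153.4 in GFP-positive cells (arrays 1 to 3) and 146.5, 148.8 and 143.1 in GFP-negative cells. Detection p lay between 0.188 and 0.372, so no difference was measured, and a transcript level below what this single probe can detect is not the same as none.

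**Figure D2:**
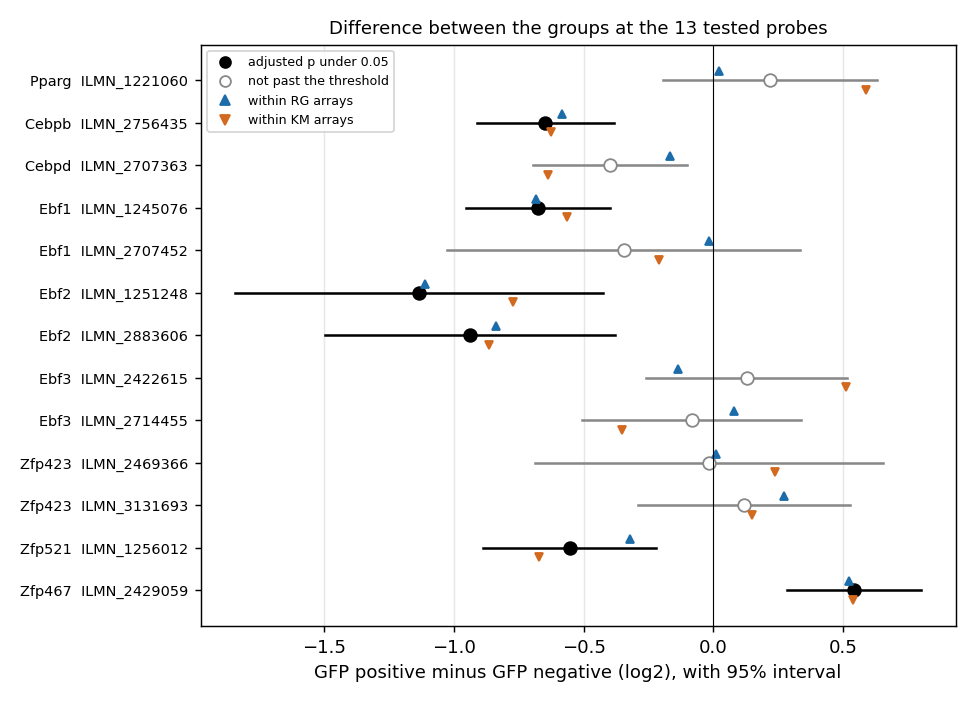
Difference between the groups (log2, GFP-positive minus GFP-negative) at the 13 tested probes; circles and bars give the limma value with its 95% interval, filled where the adjusted p was under 0.05, and triangles give the value among RG and among KM arrays alone. Cebpb, Ebf1 ILMN_1245076, both Ebf2 probes and Zfp521 lie to the left (-0.55 to -1.13) and Zfp467 to the right (0.54), with the RG and KM values on the same side for each of these 6 probes.

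Related members were also set against each other within each array, to ask whether they changed by unequal amounts, taking for each gene the tested probe with the highest mean. For Ebf1 this was ILMN_1245076, for Ebf2 ILMN_2883606, for Ebf3 ILMN_2422615 and for Zfp423 ILMN_3131693. Of 8 pairs planned, 6 could be formed, since those with Cebpa could not. An exact 2-sided permutation test of 3 against 3 arrays cannot give a p under 0.1, so no pair could pass 0.05. Ebf2 minus Ebf3 was lower by 1.07 in GFP-positive cells (log2; exact permutation p = 0.1, 0.15 adjusted over the 6 pairs), from -3.56 to -2.78 against -2.47 to -1.96. The groups did not overlap in this pair with any of the 3 other combinations of their tested probes either (-1.26 to -0.85). These combinations were added after the data were seen and use the same 6 arrays, so they are not further support. How often unrelated genes separate in this way was not counted. Without GFP-negative array 2 or 3 the exact permutation p of ILMN_2883606 minus ILMN_2422615 was 0.2. For the other pairs the outcome varied with the probe. Ebf1 minus Ebf3 differed by -0.81 with no overlap (-3.52 to -3.09 against -2.69 to -2.36; exact permutation p = 0.1), but the groups overlapped with each of the 3 other combinations (-0.59 to -0.26), -0.47 of these with the other tested Ebf1 probe, ILMN_2707452, and the same Ebf3 probe. Zfp423 minus Zfp521 differed by 0.67 with no overlap (-4.80 to -4.08 against -5.06 to -5.03; exact permutation p = 0.1). With Zfp423 probe ILMN_2469366, not detected on GFP-positive array 1, the groups overlapped (0.54; -5.81 to -4.60 against -5.67 to -5.49; exact permutation p = 0.4). Zfp423 minus Zfp467 differed by -0.42 (exact permutation p = 0.1), with the groups all but touching at -1.31 and -1.30, and overlapped with ILMN_2469366 (-0.56, exact permutation p = 0.2). Cebpb minus Cebpd (-0.25, exact permutation p = 0.2) and Ebf1 minus Ebf2 (0.26, exact permutation p = 0.6) overlapped between the groups. For Ebf1 minus Ebf2, 1 of the 3 other combinations did not (0.46 to 0.79 over the 3).

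**Figure D3:**
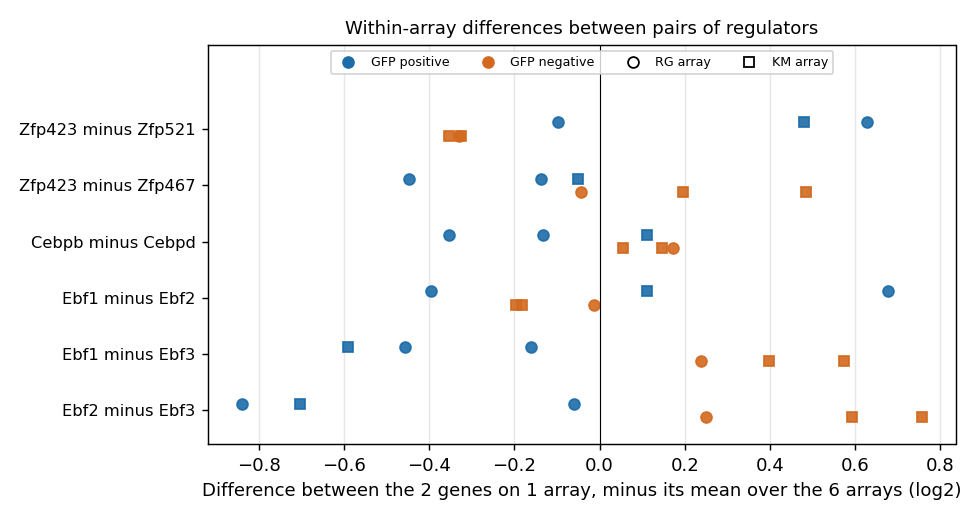
Difference between 2 genes on the same array, centred on its mean over the 6 arrays (log2), for 6 pairs, each gene by the tested probe with the highest mean; blue for GFP-positive, orange for GFP-negative, circles for RG and squares for KM arrays. The groups separate for Zfp423 minus Zfp521 and for Ebf1 and Ebf2 minus Ebf3, touch for Zfp423 minus Zfp467, and overlap for the other 2 pairs, in the plotted probes.

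Other genes of the same programme were counted from lists, taking for each gene whichever tested probe had the highest mean level. Over all tested probes 15.6% were called, 7.85% higher and 7.77% lower. Lists of 7 or 8 genes are too short for counts of 0 to 2 to be read against that share. Of 17 further adipogenic transcription factors tested, 4 rose and 1 fell, with a list median of -0.06 (log2). Foxc2, a forkhead gene, rose 4.21-fold (log2 2.08 ± 0.11 SE; limma adjusted p = 0.00011), Klf5, an activator of Pparg, 3.11-fold (adjusted p = 0.0189), and Tcf21, a gene of visceral fat stroma, fell 1.38-fold (adjusted p = 0.0222). Nr2f2 and Klf15 also rose. Klf15, below detection on all 3 GFP-negative arrays, passed the detection filter through the GFP-positive group alone. It was at least 1.34-fold higher. Of 8 partners and coregulators of C/EBP and PPARγ, Trib2, a pseudokinase gene whose product promotes C/EBPα breakdown, rose 4.08-fold (log2 2.03 ± 0.15; adjusted p = 0.000404). Tle3, not detected on any GFP-positive array, passed the detection filter through the GFP-negative group alone. It was at least 1.46-fold lower, and the list median was -0.08. Of 7 genes tied to Zfp423, 2 rose and none fell (median -0.11): Bmp4, a ligand that drives fat cell commitment, by 3.63-fold (log2 1.86 ± 0.19; adjusted p = 0.00115), and Ccn5, whose product holds Zfp423 outside the nucleus, by 5.77 ± 0.27 on the log2 scale. Of 8 PPARγ target genes tested, 0 passed in limma and 0 had an unadjusted p under 0.05; Adipoq differed by 0.85 ± 0.52, Agpat2 by 0.25 ± 0.16 and Plin4 by 0.61 ± 0.43, and the list median was 0.11. Fabp4, Cd36, Plin1, Cidec, Pck1, Slc2a4 and Lipe of that list were not detected on any array. Values of some listed genes, Klf5, Klf15, Nr2f2, Adipoq and Ccn5 among them, were known from an earlier reading of these data when the lists were drawn up.

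Markers of other cells were not evenly spread between the fractions. Their sums below are of background-corrected, normalized linear signals of the tested markers, a lower scale than the non-normalized signals above. Beside the counts of markers, 15.6% of all tested probes were called, 7.85% higher and 7.77% lower. All 5 tested mural markers (vessel-wall cells) were higher in GFP-positive cells, while Rgs5, Tagln and Cspg4 were not tested. Abcc9 and Kcnj8 were detected in GFP-positive cells only, so they passed the detection filter through that group alone. They were at least 4.79-fold and 4.71-fold higher. The mural sum of 6038 to 9594 against 3186 to 4200 is mostly Acta2. Without Acta2 it was 990.8 to 2293 against 287.9 to 357.4. Of 5 endothelial genes Tek fell (3.12-fold, limma adjusted p = 0.000367) and the other 4 did not pass, with differences on both sides of 0: Emcn 0.74 (adjusted p = 0.0657, groups not overlapping), Cdh5 0.61, Pecam1 -0.41 and Cldn5 -0.39 (log2). The endothelial sum of 3825 to 4432 against 10153 to 11029 is mostly Tek. Without Tek it was 759.4 to 1218 against 1097 to 1119, which overlap. Leukocyte Ptprc, Adgre1, Cd52 and Tyrobp were not detected on any array. Lyz2 and Csf1r were detected in GFP-positive cells only, so they too passed the detection filter through that group alone. They were at least 6.96-fold and 2.42-fold higher (sums 489.6 to 807.1 against 65.2 to 73.6). Mature fat cell markers Plin1, Cidec, Lep and Retn were not detected on any array, and Adipoq, the only one tested, was detected on 3 GFP-positive and 2 GFP-negative arrays, with 76.1 to 345.5 against 43.2 to 117.1 on the background-corrected scale. Of the mesothelial genes Krt19 and Lrrn4 were not detected on any array, and Msln and Upk3b summed to 300.3 to 1123.4 against 384.6 to 454.6. All 6 stromal markers of the labelled cells were tested, of which Pdgfrb and Col1a2 rose. The part of these other cells in the differences of the regulators was not tested.

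The genes whose 6 values lay closest to those of the called members, by root mean square difference of log2 values centred on each gene's mean over 6 arrays, were taken from 8818 genes. Closest to Cebpb were Chst7, Oas2 and Lysmd2 (0.0487 to 0.0523). Ebf1 (ILMN_1245076) lay closest to Klhl21, Nckap5 and Enpep (0.0414 to 0.0612), and Zfp521 to Cpne2, Ccnl1 and Micall1 (0.0335 to 0.0534). Zfp467 lay closest to Nlrx1, Hdac11 and Lrfn3 (0.0374 to 0.0535). For Ebf2 the nearest genes were farther off and differed by probe, Cyp20a1, Phf6 and Pogz for ILMN_2883606 (0.108 to 0.123) and Gas7, Pnpla1 and Rnd3 for ILMN_1251248 (0.158 to 0.163). The distance was not scaled, so a larger difference or spread makes it larger. The log2 SD in GFP-positive cells was 0.47 and 0.60 for these Ebf2 probes, against 0.08 to 0.15 for the other called probes. Shared regulation was not tested.

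**Figure D4:**
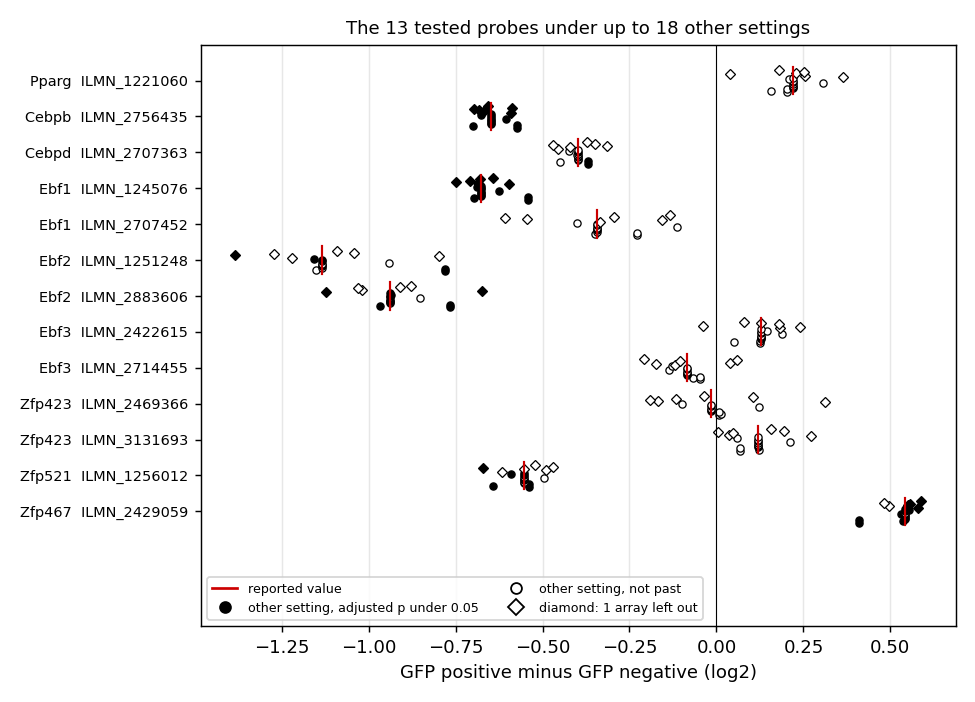
Difference between the groups (log2) at the 13 tested probes under up to 18 other settings; the red line is the reported value, filled symbols passed an adjusted p of 0.05, open ones did not, and diamonds are fits with 1 array left out. All symbols are filled for Cebpb and for Ebf1 ILMN_1245076, filled and open symbols mix for Cebpd, Ebf2, Zfp521 and Zfp467, and all are open for the other 6 probes.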

How the data were processed

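Signals of 45281 probes on 6 arrays were analysed, 3 GFP-positive and 3 GFP-negative, grouped by their titles. The main table holds linear intensities that the authors deposited before any normalization. Beside each intensity the deposited table gives a p-value of detection. The submitters' processing notes name GenomeStudio and no version. The authors' second table holds intensity values of the same arrays, whose columns share 1 distribution (medians 154.1 or 154.2) and rank as the non-normalized signals do, so it was read as quantile-normalized. Gene symbols came from the platform annotation; 34885 probes had 1 symbol, 18 several and 10378 none.

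Signals were processed with neqc in limma 3.58.1 (R 4.3.3): normexp background inferred from detection p, then quantile normalization with 16 added, on the log2 scale. A probe was tested where at least 3 arrays gave a detection p under 0.01, with lmFit and eBayes, 2-sided, without covariates, at an adjusted p of 0.05. Where all arrays of a group were below detection, the fold is a lower bound, its mean in the other group over the lowest detected value per array or its own value where higher. The number of arrays limits the precision. The procedure was tested on simulated data. Promoter sequences are RefSeq's.

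Named are all probes of the members, up to 3 genes per list by p, and the 3 genes most like each called probe; Nr2f2, Klf15 and further list genes given as all of a count of 5 or fewer were named after their values were seen. Members, lists and tests were chosen with earlier results of these data known. Alternatives were the authors' values, median scaling, leaving out the background correction, 4 other filters on detection, blocks for title letters and for replicate numbers, an intensity trend, array weights, 1 probe per gene and leaving out each array. Replicate numbers did not pair the samples: deviations from the group means of same-numbered arrays correlated at -0.07, -0.20 and 0.07.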

Additional observations from a re-analysis of the deposited data

How the results depend on the processing

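Over all tested probes 1078 were higher and 1066 lower. With single arrays left out, 646 to 957 were higher and 419 to 876 lower, the fewest without GFP-negative array 2. The number lower was 690 with all probes tested, 676 with 1 probe per gene and 637 with the replicate block, where 784 were higher; more probes were adjusted together in the first of these and fewer in the second. Of the member probes, 1 was higher and 5 lower. The number higher was 0 to 1 and the number lower 2 to 3 with single arrays left out, and the replicate block left 0 higher and 2 lower. It was 2 lower with no detection filter, with detection on at least 1 array, and with the title letters as a block. Cebpb and Ebf1 ILMN_1245076 kept their call in all of these. Zfp467, at 0.54, lost its call under the replicate block (adjusted p = 0.0697), as did both Ebf2 probes and Zfp521 (adjusted p = 0.0794, 0.0751 and 0.108). The block pairs samples by number, and the labels do not say that these belong together. Both arrays numbered 1 are RG and both numbered 3 are KM, while number 2 joins an RG with a KM array. Leaving out background correction and using the authors' normalized values are nearly the same calculation and gave 6 lower. An intensity trend with a robust prior, a different calculation, also gave 6 lower.

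Directions turned as follows. Ebf3 ILMN_2422615 ran from -0.038 to 0.24 and ILMN_2714455 from -0.21 to 0.060 with single arrays left out. Zfp423 ILMN_2469366 ran from -0.19 to 0.31 in that way, and was 0.0081 without background correction, 0.013 with median scaling, 0.0079 with the authors' values and 0.12 with the title letters as a block. Ebf1 minus Ebf2 ran from -0.012 to 0.53 with single arrays left out. The cause of these changes was not tested. With other probes of the same genes, added after the data were seen, every further pair difference kept its direction, but no pair other than Ebf2 minus Ebf3 kept its groups apart in each combination. Signal over background limits Zfp423 and the second Ebf3 probe most among the tested members. These read at most 343.2 and 302.4 where detection begins near 188.3 to 221.9, and Cebpa, at most 160.0, was below it. Ebf2 ILMN_1251248 and Ebf1 ILMN_2707452 were also low on GFP-positive array 2, at 272.1 and 305.7. Without background correction their differences were -0.78 and -0.23, against -1.13 and -0.34 with it.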
